A study of Mus musculus with 12 samples.

Results

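The genes described here encode proteins of complement, coagulation and transport in plasma, most of which hepatocytes secrete, and 1 receptor, C5ar1. They were 57 genes, named from knowledge of their products and matched by symbol to the 56748 genes of the deposited count table, and all 57 were found. They fall into 12 groups by role, from carriers such as albumin to clotting factors, serpins and complement components. The rule itself used no measured value, although earlier results of these data were known when it was made. Hepatocytes make nearly all of these proteins, and their transcripts are among the most abundant of the liver. Complement is a cascade of proteases and pore-forming proteins that marks and lyses microbes, and coagulation is a cascade of proteases that ends in fibrin. Both are held in check by serpins, inhibitors that trap a protease, and the carriers move fatty acids, iron, heme, vitamins and hormones in blood.

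RNA-seq had been done on 12 livers of mice fasted for 24 h. The 4 livers called DKO came from mice with a liver-specific double KO of Atf3, a stress-induced transcription factor, and Cpt2, the carnitine palmitoyltransferase of the inner mitochondrial membrane that long-chain fatty acid oxidation needs. The 4 livers called SKO came from the liver-specific KO of Cpt2, and the 4 called WT from controls that the labels describe as triple floxed for CPT1A, CPT1B and CPT2. The KO mice carried Cre under the albumin promoter, which is active in hepatocytes, so the other cells of the liver keep the floxed genes, and the WT livers also differ from the KO livers in which genes are floxed. The age of the mice is not given in the sources used here. The comparisons ask how these genes differ when hepatocytes cannot oxidize long-chain fatty acids, and whether they differ further when Atf3 is also deleted in hepatocytes.

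Between 14710304 and 20030055 reads per liver had been counted on genes. The level of Cpt2 was 199 to 250 CPM (counts scaled to the library total and TMM factor) in WT livers, with 109 to 158 in SKO and 99.9 to 125 in DKO, and Atf3 had 17 to 39 counts in WT, 259 to 1056 in SKO and 164, 177, 265 and 5 in DKO livers. DKO replicates 1 to 3 thus lay above every WT liver in Atf3 and below the SKO range in CPM, and counts over the whole gene do not show whether the floxed part was deleted. Although the study describes the sequenced mice as male, SKO replicate 3 had 18063 and DKO replicate 4 had 20855 counts of Xist, with at most 19 in the other livers, and their Y-linked genes summed to 2 and 0 counts. DKO replicate 4 also stood apart in the plasma protein genes, so results are given with and without it. A list of hepatocyte markers summed to 47310 to 55651 CPM in WT and 30343 to 44405 in the KO livers. In bulk tissue, fewer cells of a type and less RNA per cell cannot be told apart.

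The 57 genes took 13.2 to 14.6% of all counts in WT livers, 6.84 to 9.34% in SKO and 7.60 to 8.26% in DKO replicates 1 to 3, and 15.9% in DKO replicate 4. All SKO livers and DKO replicates 1 to 3 lay below the WT livers, and DKO replicate 4 lay above them. Alb accounted for 5.07 to 5.88% of the counts in WT, 2.36 to 4.68% in SKO, 2.69 to 3.00% in DKO replicates 1 to 3 and 7.19% in DKO replicate 4. Per length and in the deposited FPKM, Alb was the highest of the 57 in WT with a median of 26626, followed by Serpina1e with 4068, Rbp4 with 3961 and Trf with 3762. The lowest were Cfb with 2.02, Serpina7 with 1.21 and C5ar1 with 0.433, the last of these being a receptor of leukocytes.

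**Figure D1:**
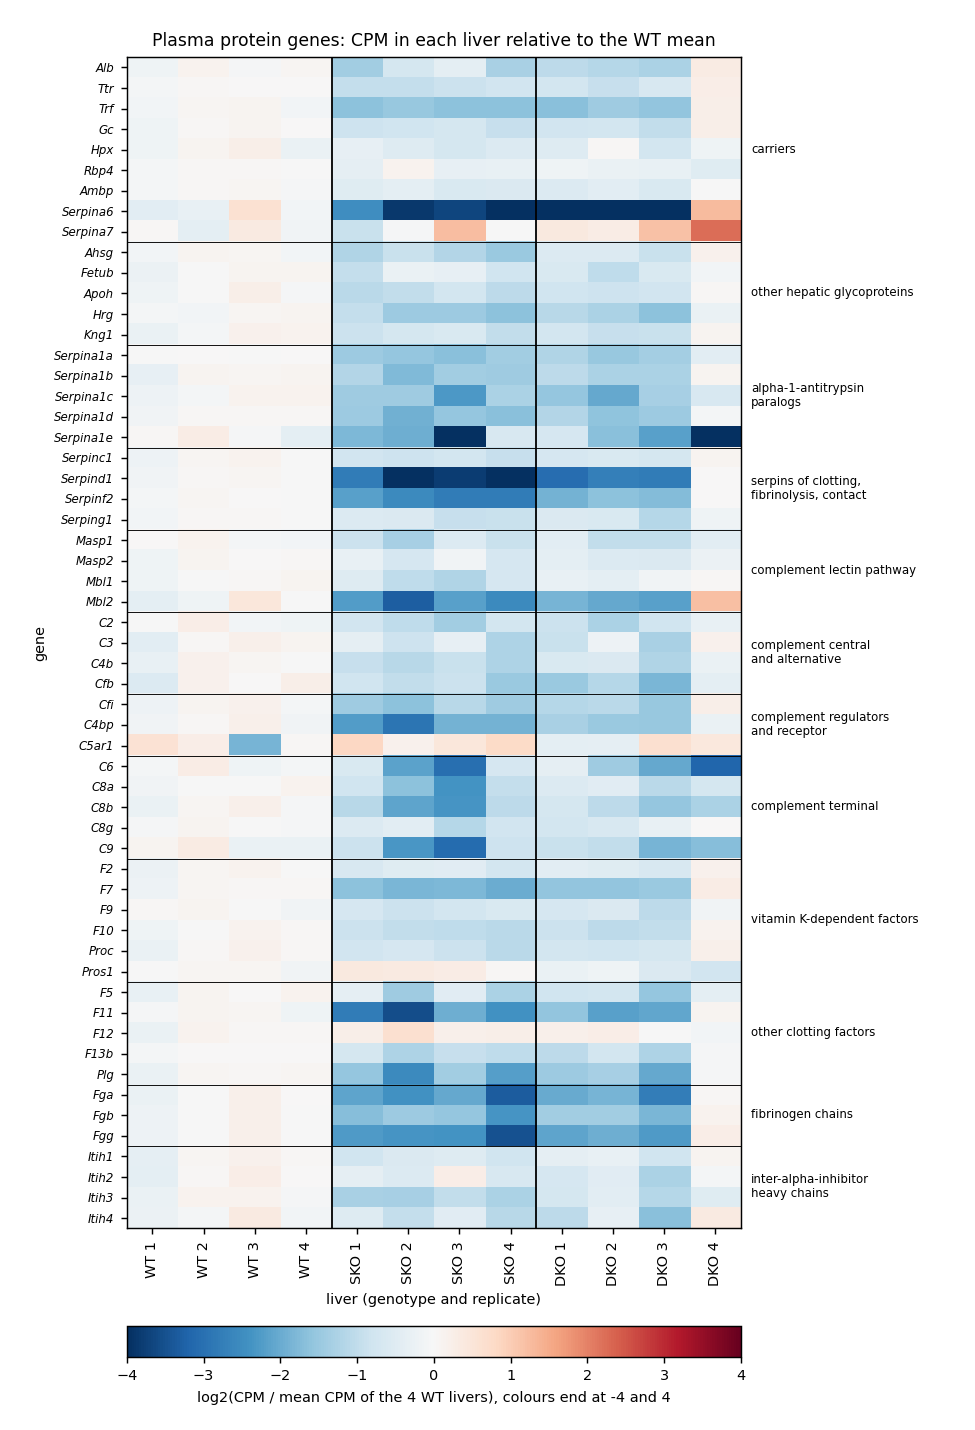
Level of each of the 57 plasma protein genes (rows, grouped by role) in each of the 12 livers (columns), as log2 of CPM over the mean CPM of the 4 WT livers; blue is below and red above that mean. The SKO livers and DKO replicates 1 to 3 are blue for most genes, DKO replicate 4 is closer to the WT livers for most, while Serpina1e, C6 and C9 are blue there too.

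In the SKO livers, 50 of the 57 genes were lower than in WT, 0 were higher and 7 did not pass an adjusted p of 0.05 in the quasi-likelihood test of edgeR, with p-values adjusted by Benjamini-Hochberg over all 14261 genes tested. Of all genes tested, 15.4% were lower and 16.7% higher. The median log2 fold change of the 57 was -0.96, against 0.03 over all genes. The SKO and WT livers did not overlap for 49 genes that were lower, where the background was 16.1%, and for 1 that was higher, F12, where it was 17.2%. The decreases were of unequal size. Heparin cofactor II, corticosteroid-binding globulin, factor XI, the fibrinogen gamma chain and antiplasmin fell most, while prothrombin, C3 and albumin fell by less than 1 on the log2 scale. When scaled by library totals without TMM factors, which moved the median of all genes from 0.03 to 0.20, 44 were lower and 2, F12 and Pros1, were higher, against 11% and 26.4% of all genes.

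Without DKO replicate 4, 51 of the 57 genes were lower in DKO than in WT livers and 0 were higher, beside 17.5% lower and 18.4% higher among all 14634 genes tested with edgeR. Their median was -0.92, against 0.02 over all genes. With all 4 DKO livers, 8 genes were lower and 0 higher, namely Serpina1a, Serpina1c, Masp1, C2, C4bp, C8a, C8b and C9, with 4.39% lower and 6.06% higher among all 14448 genes. Their median was then -0.60, against 0.03 over all genes. The ranges of the DKO and WT livers did not overlap for 18 genes that were lower with all 4 DKO livers (9.05% of all genes) and for 50 without replicate 4 (20.3%). The number of calls rested on single libraries: it was 0 without WT replicate 2, 1 without WT replicate 1 or DKO replicate 3, 2 without WT replicate 3, WT replicate 4 or DKO replicate 2, and 3 without DKO replicate 1. The share of all genes that were lower fell as well, to 0.802% without WT replicate 2, 0.9 and 0.908% without WT replicate 1 or DKO replicate 3, 2.38, 1.25 and 1.18% without WT replicate 3, WT replicate 4 or DKO replicate 2, and 1.3% without DKO replicate 1. Of the 8, C8b had the smallest p, with a log2 fold change of -1.09 (SE 0.19, edgeR adjusted p = 0.0136). For Serpina1a it was -1.04 (SE 0.25, adjusted p = 0.0315), for Serpina1c -1.28 (SE 0.28, adjusted p = 0.0242) and for C4bp -1.02 (SE 0.28, adjusted p = 0.0471), while Masp1 and C2 had -0.66 and -0.75. Both KO genotypes share these WT livers as controls, so the decreases in DKO are not independent of those in SKO.

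**Figure D2:**
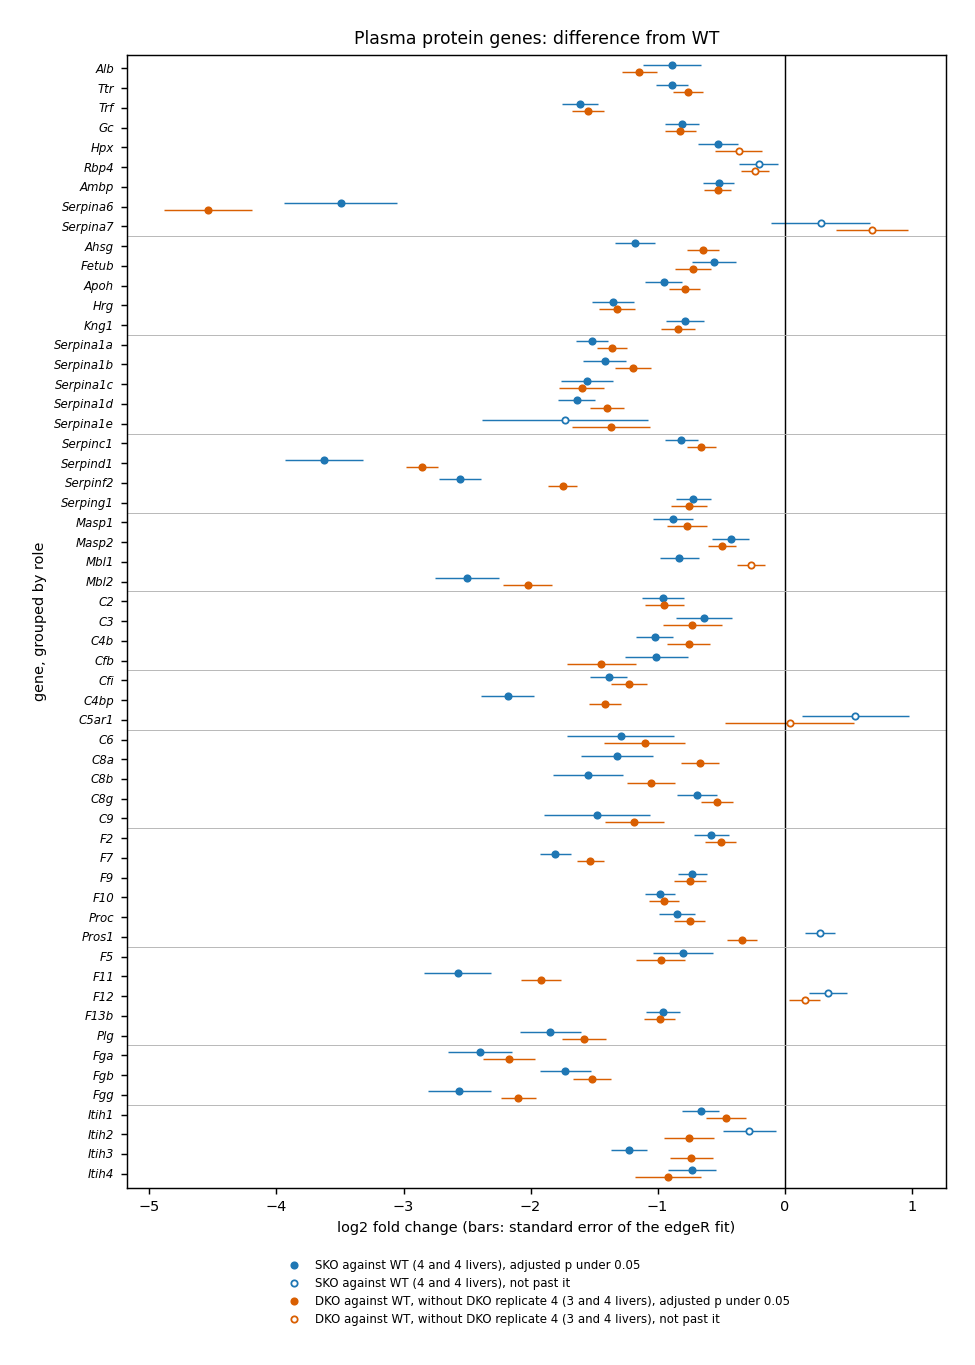
Log2 fold change against WT of each plasma protein gene (rows, grouped by role) in SKO livers (blue, 4 and 4 livers) and in DKO livers without replicate 4 (orange, 3 and 4 livers). Bars are standard errors and filled symbols passed an adjusted p of 0.05 in edgeR. The points lie left of 0 for nearly all genes, with Serpina6 and Serpind1 farthest from it.

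Of the 9 carriers, 7 were lower in SKO livers, where 15.4% of all genes were. Albumin, which binds fatty acids in plasma, had 51850, 65151, 56618 and 62290 CPM in WT livers, 22524, 36570, 44518 and 24012 in SKO and 28454, 26662, 24688 and 74165 in DKO livers. All SKO livers and DKO replicates 1 to 3 lay below all WT livers, and DKO replicate 4 above them. The log2 fold change of Alb was -0.89 (SE 0.23, edgeR adjusted p = 0.0115) in SKO and -1.14 (SE 0.14, adjusted p = 9.74e-05) in DKO without replicate 4, and -0.60 (SE 0.39, adjusted p = 0.341) with it. In SKO, Alb passed the threshold in 14 of 15 fits with other settings or livers. Transferrin (Trf), the iron carrier, fell by 1.61 in SKO (SE 0.14, edgeR adjusted p = 1.25e-05) and by 1.55 in DKO without replicate 4 (SE 0.13, adjusted p = 7.53e-06). Its 8 WT and SKO values did not overlap, with 11214 to 13007 CPM in WT and 3822 to 4241 in SKO. Transthyretin (Ttr), a carrier of thyroid hormone and of the retinol-binding protein, fell by 0.89 (SE 0.13, edgeR adjusted p = 0.000313) and by 0.76 (SE 0.12, adjusted p = 0.00052). The vitamin D-binding protein Gc, the heme binder Hpx and Ambp, the precursor of alpha-1-microglobulin and bikunin, were also lower in SKO, by 0.80, 0.52 and 0.52, and Hpx passed the threshold in 9 of 15 fits with other settings or livers.

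Serpina6, which encodes corticosteroid-binding globulin, had 80.4, 88.2, 163 and 99.9 CPM in WT livers and 19.3, 7.42, 8.47 and 3.26 in SKO. Its DKO livers had 6.85, 2.76, 4.02 and 259 CPM. DKO replicates 1 to 3 overlapped the SKO livers, and DKO replicate 4 was the highest of all 12 livers, at 57.1 times the mean of the other DKO livers. Its log2 fold change was -3.50 (SE 0.44, edgeR adjusted p = 0.000139) in SKO and -4.54 (SE 0.35, adjusted p = 4.69e-06) in DKO without replicate 4, while with all 4 DKO livers it was -0.63 (SE 1.23, adjusted p = 0.776).

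The remaining carriers did not pass the test in SKO. Rbp4, the retinol carrier, had 4827 to 5170 CPM in WT and 3903, 5549, 4006 and 4078 in SKO livers, so that SKO replicate 2 lay above the WT livers and the others below. Its log2 fold change was -0.20 (SE 0.15, edgeR adjusted p = 0.348). The 4 DKO livers, with 4508, 4153, 4131 and 3628 CPM, all lay below WT, with a log2 fold change of -0.28 (SE 0.16, edgeR adjusted p = 0.26) that passed the threshold with DESeq2 (-0.30, SE 0.10, adjusted p = 0.0200). Serpina7, thyroxine-binding globulin, was low, with 2.22 to 3.71 CPM in WT, and had 13.6 CPM in DKO replicate 4, against 1.56 to 6.81 in the other KO livers. Its log2 fold change in all 4 DKO livers was 1.26 (SE 0.43, edgeR adjusted p = 0.0873), and it passed the threshold with DESeq2 (1.25, SE 0.44, adjusted p = 0.0293). Without DKO replicate 4 it was 0.69 (SE 0.28, edgeR adjusted p = 0.0827).

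**Figure D3:**
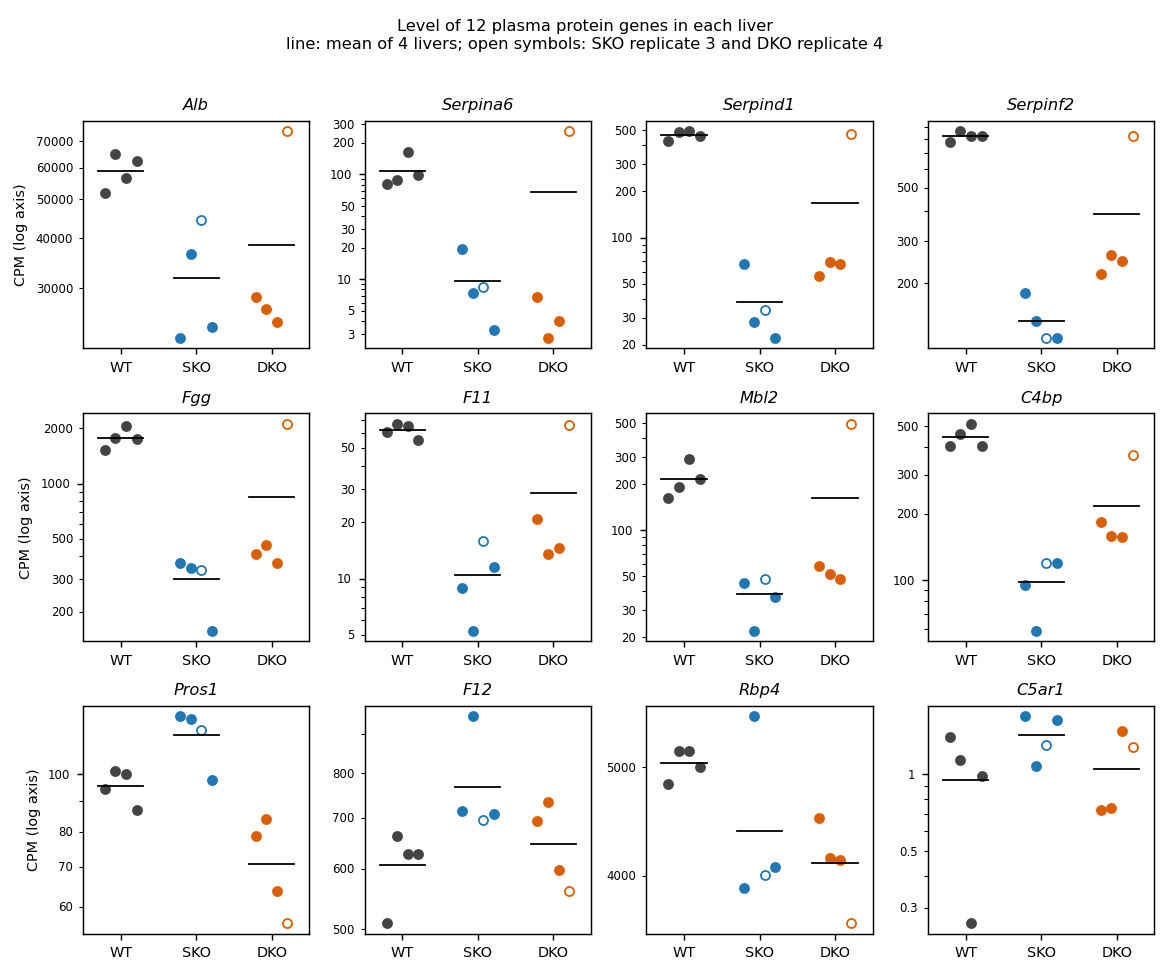
CPM (log axis, a separate scale for each gene) of 12 plasma protein genes in each liver, by genotype; lines are means of 4 livers and open symbols mark SKO replicate 3 and DKO replicate 4, the livers with Xist counts. DKO replicate 4 lies within the WT values for Serpind1, Serpinf2 and F11, above them for Alb, Fgg, Mbl2 and Serpina6 and below them for C4bp, and Pros1, Rbp4 and F12 have their lowest DKO value there.

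The 3 chains of fibrinogen, the precursor of fibrin, fell together. Fgg had 1532, 1764, 2063 and 1747 CPM in WT livers, 367, 345, 336 and 157 in SKO and 413, 462, 368 and 2123 in DKO livers. The log2 fold changes in SKO were -2.40 for Fga (SE 0.25, edgeR adjusted p = 4.15e-05), -1.73 for Fgb (SE 0.20, adjusted p = 7.61e-05) and -2.56 for Fgg (SE 0.25, adjusted p = 2.39e-05). In DKO livers without replicate 4 they were -2.17, -1.52 and -2.10, each past the threshold, and with replicate 4 they were -1.22, -0.88 and -1.06, none past it. The chains did not keep their ratio. Per length, in deposited FPKM, Fga stood at 1.21 to 1.31 times Fgb in WT livers and at 0.652 to 0.952 times Fgb in SKO. In DKO replicates 1 to 3 this ratio was 0.670 to 0.905, and in replicate 4 it was 1.18. The Fgg to Fgb ratio was 1.21 to 1.25 in WT, 0.566 to 0.828 in SKO, 0.749 to 0.915 in DKO replicates 1 to 3 and 1.34 in replicate 4. The 3 genes are neighbours on chromosome 3, where the deposited table, in coordinates that differ from those of GRCm38, lists Fgg at 82915031 to 82922356, Fga at 82933383 to 82940934 and Fgb at 82947448 to 82957170.

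The DNA upstream of some of these genes is shown because the fibrinogen chains and albumin were lower together, Serpind1 had the largest decrease and F12 had SKO livers above all WT livers. Each line holds the 150 bases before the start of a RefSeq gene, 5′ to 3′ on its own strand, from build GRCm38.p6. Capitals mark GTTAAT or its reverse complement ATTAAC, a short motif searched for in all windows. The windows are chr5:90460720-90460869 (Alb, strand plus), chr3:83026003-83026152 (Fga, strand plus), chr3:83049864-83050013 (Fgb, strand minus), chr3:83007574-83007723 (Fgg, strand plus), chr16:17331221-17331370 (Serpind1, strand plus) and chr13:55426805-55426954 (F12, strand minus).
Alb: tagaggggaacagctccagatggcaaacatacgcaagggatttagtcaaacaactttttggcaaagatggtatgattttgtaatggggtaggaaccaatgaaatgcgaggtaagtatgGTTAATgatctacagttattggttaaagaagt
Fga: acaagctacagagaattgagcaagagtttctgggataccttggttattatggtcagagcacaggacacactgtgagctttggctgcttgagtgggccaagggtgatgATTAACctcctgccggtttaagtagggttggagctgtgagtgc
Fgb: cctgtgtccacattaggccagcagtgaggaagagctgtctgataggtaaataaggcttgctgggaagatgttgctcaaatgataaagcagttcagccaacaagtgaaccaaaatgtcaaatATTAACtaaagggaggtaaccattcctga
Fgg: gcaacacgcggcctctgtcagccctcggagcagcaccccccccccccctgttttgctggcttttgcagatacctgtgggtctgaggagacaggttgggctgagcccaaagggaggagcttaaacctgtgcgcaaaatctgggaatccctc
Serpind1: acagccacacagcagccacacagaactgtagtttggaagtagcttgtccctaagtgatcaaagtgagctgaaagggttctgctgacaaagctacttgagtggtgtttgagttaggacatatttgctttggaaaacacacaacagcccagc
F12: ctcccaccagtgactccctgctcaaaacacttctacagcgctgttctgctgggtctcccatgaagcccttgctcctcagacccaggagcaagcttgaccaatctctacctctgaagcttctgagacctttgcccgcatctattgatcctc

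Of the 57 genes, 45 had such a window, and some had more than 1 start, giving 49 windows. GTTAAT was found on either strand in 15 of the 49 windows (30.6%), against 3.71% of all 32851 windows. These were the windows of Alb, C4bp, C8a, F13b, Fga, Fgb, Gc, Itih1, Serpina7 and the 5 Serpina1 paralogs. TTNNGCAA, a form of the C/EBP site, was found in 14 windows (28.6%, against 5.46% of all). The cAMP response element TGACGTCA, to which ATF and CREB factors bind, was in 0 of the 49 windows, against 1.36% of all, CAAAGTCC of the HNF4 site was in 0, against 0.737%, and TGATGNAA of C/EBP-ATF sites was in 1, of Rbp4, which is 2.04% against 2.23%. In 0 of these windows did hits of different motifs overlap. The 14 genes with GTTAAT had a median log2 fold change of -1.47 in SKO, the 9 of them other than the Serpina1 paralogs one of -0.96, and the 31 without it one of -0.81. Of these, 12 of 14, 8 of 9 and 26 of 31 were lower in SKO, beside 15.4% of all genes. No match was found in the windows of Fgg and Serpind1.

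The serpins that limit clotting and its lysis were all lower in SKO livers, beside 15.4% of all genes. Serpind1, heparin cofactor II, which inhibits thrombin, had 423, 486, 495 and 460 CPM in WT livers and 67.4, 28.2, 33.5 and 22.2 in SKO. Its DKO livers had 56.0, 69.7, 67.5 and 476 CPM, so that replicate 4 lay within the WT range and the others far below it. The log2 fold change was -3.63 (SE 0.31, edgeR adjusted p = 1.13e-05) in SKO, the largest decrease of the 57, and -2.85 (SE 0.13, adjusted p = 1.83e-07) in DKO without replicate 4. Serpinf2, alpha-2-antiplasmin, which inhibits plasmin, had 777 to 862 CPM in WT, 182, 140, 119 and 119 in SKO and 219, 262, 249 and 822 in DKO livers. It fell by 2.55 in SKO (SE 0.16, edgeR adjusted p = 1.75e-06) and by 1.75 in DKO without replicate 4 (SE 0.11, adjusted p = 1.43e-06). Antithrombin, Serpinc1, and the C1 inhibitor, Serping1, fell by 0.81 and 0.72 in SKO.

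Of the 6 factors that depend on vitamin K for their carboxylation, 5 were lower in SKO livers, beside 15.4% of all genes. Factor VII (F7), which starts the extrinsic pathway, had 105 to 127 CPM in WT and 30.6 to 38.7 CPM in SKO livers and changed most, with a log2 fold change of -1.81 (SE 0.12, edgeR adjusted p = 2.41e-06), and -1.53 (SE 0.11, adjusted p = 2.35e-06) in DKO without replicate 4. Prothrombin (F2), factor IX (F9), factor X (F10) and protein C (Proc) fell by 0.58, 0.73, 0.98 and 0.85. For F2 the SE was 0.14 and the edgeR adjusted p 0.00724. Protein S, Pros1, a cofactor of activated protein C, was not lower in SKO. It had 87.1 to 101 CPM in WT and 125, 124, 118 and 97.9 in SKO livers, which overlap, with a log2 fold change of 0.28 (SE 0.12, edgeR adjusted p = 0.101). Its DKO livers had 78.9, 84.2, 63.7 and 56.2 CPM, below all WT livers, with a log2 fold change of -0.42 (SE 0.14, adjusted p = 0.0805) and without replicate 4 of -0.34 (SE 0.11, adjusted p = 0.0418).

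Among the other clotting factors, F11, which activates factor IX, had 60.3, 67.1, 65.6 and 54.9 CPM in WT livers, 8.96, 5.27, 15.9 and 11.5 in SKO and 20.7, 13.6, 14.6 and 66.1 in DKO livers. It fell by 2.57 in SKO (SE 0.26, edgeR adjusted p = 3.24e-05) and by 1.92 in DKO without replicate 4 (SE 0.16, adjusted p = 7.61e-06). Plasminogen (Plg), the zymogen of the protease that dissolves fibrin, fell by 1.85 in SKO (SE 0.24, edgeR adjusted p = 0.000161) and by 1.58 in DKO without replicate 4 (SE 0.17, adjusted p = 5.3e-05), from 1802 to 2286 CPM in WT to 371 to 828 in SKO livers. The subunit F13b of the factor that cross-links fibrin and the cofactor F5 fell by 0.96 and 0.80, and F5 passed the threshold in 10 of 15 fits with other settings or livers. F12, the factor that starts the contact pathway, was the exception, with 509 to 661 CPM in WT and 715, 950, 695 and 708 in SKO livers. Each SKO liver lay above each WT liver, but the log2 fold change of 0.34 (SE 0.15) did not pass the threshold (edgeR adjusted p = 0.105).

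All 4 genes of the lectin pathway, by which sugars on microbes start complement, were lower in SKO livers, beside 15.4% of all genes. Mbl2, a mannose-binding lectin, had 163, 190, 292 and 215 CPM in WT livers, 45.4, 22.1, 48.1 and 36.8 in SKO and 58.7, 51.5, 47.7 and 496 in DKO livers. DKO replicate 4 was the highest of the 12 livers. The log2 fold change was -2.50 (SE 0.25, edgeR adjusted p = 3.04e-05) in SKO and -2.02 (SE 0.19, adjusted p = 1.9e-05) in DKO without replicate 4. Mbl1, the paralog, fell by 0.83 in SKO (SE 0.15, edgeR adjusted p = 0.00174), with 110 to 135 CPM in WT and 54.1 to 86.3 in SKO, and its DKO livers had 100, 95.4, 113 and 128 CPM. The proteases Masp1 and Masp2 that these lectins activate fell by 0.88 and 0.43, and Masp2 passed the threshold in 6 of 15 fits with other settings or livers.

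C3, on which all complement pathways converge, had 5675, 7712, 8666 and 8058 CPM in WT livers and 5914, 4219, 6048 and 3202 in SKO, so that the groups overlapped. Its DKO livers had 4056, 6508, 3084 and 8527 CPM. The log2 fold change of -0.64 (SE 0.22, edgeR adjusted p = 0.0449) in SKO just passed the threshold, and it passed in 7 of 15 fits with other settings or livers, with adjusted p-values from 0.0103 to 0.135. C4b and C2, which form the C3 convertase of the classical and lectin pathways, fell by 1.02 and 0.96, and Cfb of the alternative pathway, with only 3.48 to 5.94 CPM in WT, fell by 1.01. Of the regulators, C4bp, which binds C4b, fell by 2.18 (SE 0.21, edgeR adjusted p = 2.45e-05) in SKO and by 1.42 (SE 0.13, adjusted p = 1.44e-05) in DKO without replicate 4, and the protease Cfi that inactivates C3b and C4b fell by 1.39 in SKO. The C5a receptor C5ar1, with 0.260 to 1.40 CPM in WT and 1.07 to 1.69 in SKO, overlapped between the groups and had a log2 fold change of 0.56 (SE 0.42, edgeR adjusted p = 0.347).

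C6, C8a, C8b, C8g and C9, which with C5 and C7, not among the 57, form the membrane attack complex, the pore that ends the cascade, were lower in SKO livers, but the SKO livers were spread out. C9, which polymerizes into the pore, had 362, 423, 284 and 284 CPM in WT livers and 188, 67.8, 40.2 and 191 in SKO. Its DKO livers had 182, 171, 92.8 and 104 CPM, all below WT, DKO replicate 4 included. The log2 fold changes were -1.48 (SE 0.42, edgeR adjusted p = 0.0179) in SKO and -1.29 (SE 0.25, adjusted p = 0.0178) in all 4 DKO livers. C6 had 140 to 194 CPM in WT livers, 103, 35.5, 19.6 and 99.3 in SKO and 121, 58.9, 37.97 and 17.6 in DKO livers. C8a, C8b and C8g, the chains of the C8 protein, fell by 1.32, 1.55 and 0.69 in SKO, and C8a and C8b by 0.67 and 1.09 in all 4 DKO livers. In SKO replicate 3 all 5 genes had their lowest SKO level, and the mean of the other SKO livers was 4.04 times as high for C6, 2.48 for C8a, 2.03 for C8b and 3.70 for C9. In SKO, C6 passed the threshold in 9 and C9 in 14 of 15 fits with other settings or livers.

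The 5 Serpina1 paralogs, which encode forms of the protease inhibitor alpha-1-antitrypsin, lie in 1 cluster on chromosome 12. Their reading frames of 1242 bases were 96.3 to 98.47% identical between the 10 pairs, so that reads could be split between them and the level of each is uncertain. The stretch with the most differences, bases 1103 to 1192 of the frame, is shown because the positions at which reads can tell the paralogs apart are densest there. Capitals mark the 20 of its 90 positions at which the paralogs are not all alike, out of 86 such positions in the frame, from GENCODE transcripts of GRCm38.
Serpina1a: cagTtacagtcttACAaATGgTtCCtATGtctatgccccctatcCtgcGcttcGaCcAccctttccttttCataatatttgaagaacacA
Serpina1b: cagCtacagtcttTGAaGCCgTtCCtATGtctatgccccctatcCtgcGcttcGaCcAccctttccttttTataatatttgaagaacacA
Serpina1c: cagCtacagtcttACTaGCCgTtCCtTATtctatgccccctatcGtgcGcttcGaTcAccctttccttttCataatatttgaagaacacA
Serpina1d: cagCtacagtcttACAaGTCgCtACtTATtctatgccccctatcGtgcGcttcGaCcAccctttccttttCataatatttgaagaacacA
Serpina1e: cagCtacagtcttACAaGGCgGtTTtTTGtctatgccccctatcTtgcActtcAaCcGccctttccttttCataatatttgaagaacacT

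Serpina1a to Serpina1d were lower in SKO livers, by 1.52, 1.42, 1.56 and 1.64. For Serpina1a, with 2071 to 2118 CPM in WT and 654 to 806 in SKO, the SE was 0.13 and the edgeR adjusted p 1.1e-05, and for Serpina1d 0.14 and 1.37e-05. Serpina1e had 6481, 7696, 6101 and 4758 CPM in WT livers, 1811, 1619, 135 and 3993 in SKO and 3893, 1969, 1391 and 208 in DKO livers. Neither genotype overlapped with WT, and the log2 fold changes were -1.73 (SE 0.65, edgeR adjusted p = 0.0625) in SKO and -1.74 (SE 0.65, adjusted p = 0.11) in DKO. It passed the threshold in DKO without replicate 4 (-1.36, SE 0.31, edgeR adjusted p = 0.00556) and in 5 of 15 other fits of SKO against WT. The values of 135 and 208 CPM were those of the livers with Xist counts. There Serpina1e took 3.62 and 2.07% of the counts of the paralogs, against 25.2 to 51.1% in the other KO livers and 30.1 to 41.8% in WT.

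The same livers were low in genes with male-biased liver expression. A list of 12 such genes summed to 329 CPM in SKO replicate 3 and 333 in DKO replicate 4, against 2253 to 8727 in the other KO livers and 9105 to 14097 in WT. Of 13 female-biased genes the sums were 973 and 2009 CPM, against 27.7 to 252 in the other livers. Of the genes tested, 3 of 12 male-biased genes were lower and 2 of 6 female-biased genes higher in SKO livers, where 15.4% of all genes were lower and 16.7% higher. Their part in the levels of Serpina1e, C6, C8a, C8b and C9 was not tested. Without SKO replicate 3, 51 of the 57 genes were lower in SKO livers, as were 15.2% of all genes.

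**Figure D4:**
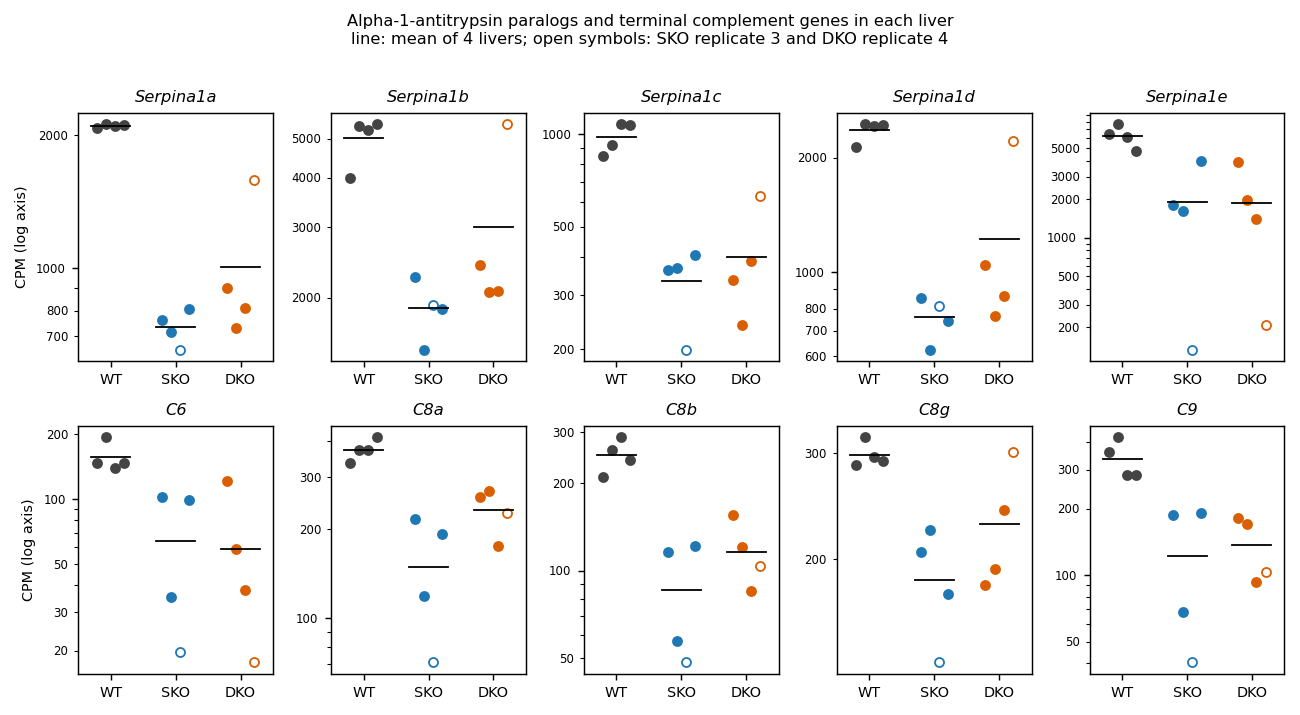
CPM (log axis, a separate scale for each gene) of the 5 alpha-1-antitrypsin paralogs and 5 genes of the membrane attack complex in each liver; lines are means of 4 livers and open symbols mark SKO replicate 3 and DKO replicate 4. Within each KO genotype Serpina1e and C6 are lowest in these livers, whereas the other paralogs in DKO replicate 4 lie above the other DKO livers.

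The glycoproteins of broader function were also lower, as were most inter-alpha-inhibitor heavy chains, a family of which most are coupled to hyaluronan and stabilize matrix. In SKO, 5 of 5 and 3 of 4 genes were past the threshold, beside 15.4% lower and 16.7% higher of all genes. Fetuin-A (Ahsg), which keeps calcium phosphate in solution, fell by 1.18 in SKO (SE 0.16, edgeR adjusted p = 0.000224). Its DKO livers, with 4594, 4645, 3666 and 7556 CPM, lay between 2381 to 3642 in SKO and 6303 to 7243 in WT, except for replicate 4. Hrg, Apoh, Kng1, the precursor of bradykinin, and Fetub fell by 1.35, 0.95, 0.78 and 0.56, and Fetub passed the threshold in 8 of 15 fits with other settings or livers. Itih3 fell by 1.22 in SKO (SE 0.14, edgeR adjusted p = 8.2e-05), and Itih1 and Itih4 by 0.66 and 0.73. Itih4 passed the threshold in 14 of 15 fits with other settings or livers. Itih2, with 775 to 1442 CPM in SKO livers, overlapped the 917 to 1456 CPM of WT and had a log2 fold change of -0.28 (SE 0.21, edgeR adjusted p = 0.354), and it was lower in DKO without replicate 4, by 0.76 (SE 0.20, adjusted p = 0.0117).

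DKO and SKO livers were compared next. By the edgeR test 0 of the 57 genes passed the threshold, and by DESeq2 2 of the 53 to which it gave an adjusted p, where 0.0209% of 14363 genes did by edgeR and 0.68% of the 14268 genes with an adjusted p did by DESeq2. With DESeq2 Serpinf2 was higher and Pros1 lower, and Fgg, Serpind1, Mbl2 and Serpina6 were not tested. At an unadjusted p under 0.05, 10 genes were higher and 1 lower, against 4.11 and 2.38% of all genes. The 10 were Ahsg, Serpind1, Serpinf2, Mbl1, Mbl2, C4bp, F7, F11, Fgg and Itih3, and the 1 was Pros1. The median log2 difference of the 57 was 0.40, against 0.01 over all genes. Without DKO replicate 4 it was 0.16, against -0.0045, and 6 genes were higher and 1 lower at an unadjusted p under 0.05 (3.77 and 3.45% of all genes), while again 0 passed the threshold in edgeR, which 0.103% of 14589 genes did. With SKO replicate 3 left out as well, so without both livers with Xist counts, the median of the 57 was 0.097, against -0.0094 over all genes.

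The livers of both genotypes did not overlap for 7 genes higher in DKO (2.08% of all genes) and 1 lower (1.86%), and the counts were the same without replicate 4 (4.05 and 3.55%). Serpinf2 had 219, 262, 249 and 822 CPM in DKO and 182, 140, 119 and 119 in SKO livers. Its log2 difference was 1.51 (SE 0.42, edgeR adjusted p = 0.472) and without replicate 4 it was 0.81 (SE 0.18, edgeR adjusted p = 0.17). C4bp had 183, 159, 157 and 368 CPM in DKO and 95.3, 58.9, 120 and 120 in SKO livers, with a log2 difference of 1.17 (SE 0.33, edgeR adjusted p = 0.472) and 0.76 (SE 0.23, adjusted p = 0.415) without replicate 4. These genes thus lay between SKO and WT in DKO replicates 1 to 3. For Mbl1 the difference was 0.67 (SE 0.19, edgeR adjusted p = 0.472), for Ahsg 0.81 (SE 0.28, adjusted p = 0.633) and for F7 1.02 (SE 0.42, adjusted p = 0.734). Without replicate 4 these were 0.57, 0.54 and 0.28. Pros1 was the gene lower in all DKO than in all SKO livers, by 0.70 (SE 0.16, edgeR adjusted p = 0.396), and by 0.61 (SE 0.16, adjusted p = 0.285) without replicate 4.

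Many other differences changed without DKO replicate 4. Serpind1 differed by 2.20 (SE 0.72, edgeR adjusted p = 0.609) and without that liver by 0.77 (SE 0.31, adjusted p = 0.612), Mbl2 by 2.15 (SE 0.76, adjusted p = 0.664) and 0.47 (SE 0.24), F11 by 1.51 (SE 0.54, adjusted p = 0.664) and 0.65 (SE 0.32), and Fgg by 1.52 (SE 0.58, adjusted p = 0.701) and 0.46 (SE 0.26). Itih3 differed by 0.57 (SE 0.20, edgeR adjusted p = 0.646) and 0.49 (SE 0.20). Serpina6 turned from 2.90 (SE 1.35) to -1.06 (SE 0.50), and Alb from 0.31 (SE 0.44, edgeR adjusted p = 0.948) to -0.26 (SE 0.27, adjusted p = 0.93). C3 turned from 0.22 (SE 0.36, edgeR adjusted p = 0.953) to -0.09 (SE 0.29, adjusted p = 0.984). With all 4 DKO livers the differences of Trf, Ttr, Fga, Fgb and Plg were 0.79 (SE 0.43), 0.48 (SE 0.28), 1.19 (SE 0.56), 0.86 (SE 0.43) and 0.86 (SE 0.44), with edgeR adjusted p-values of 0.764 to 0.828, and without replicate 4 they were 0.06, 0.12, 0.23, 0.21 and 0.26. F2 differed by 0.30 (SE 0.22) with all 4 DKO livers and by 0.07 (SE 0.17) without replicate 4, and C5ar1 by -0.40 (SE 0.35) and -0.52 (SE 0.39).

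**Figure D5:**
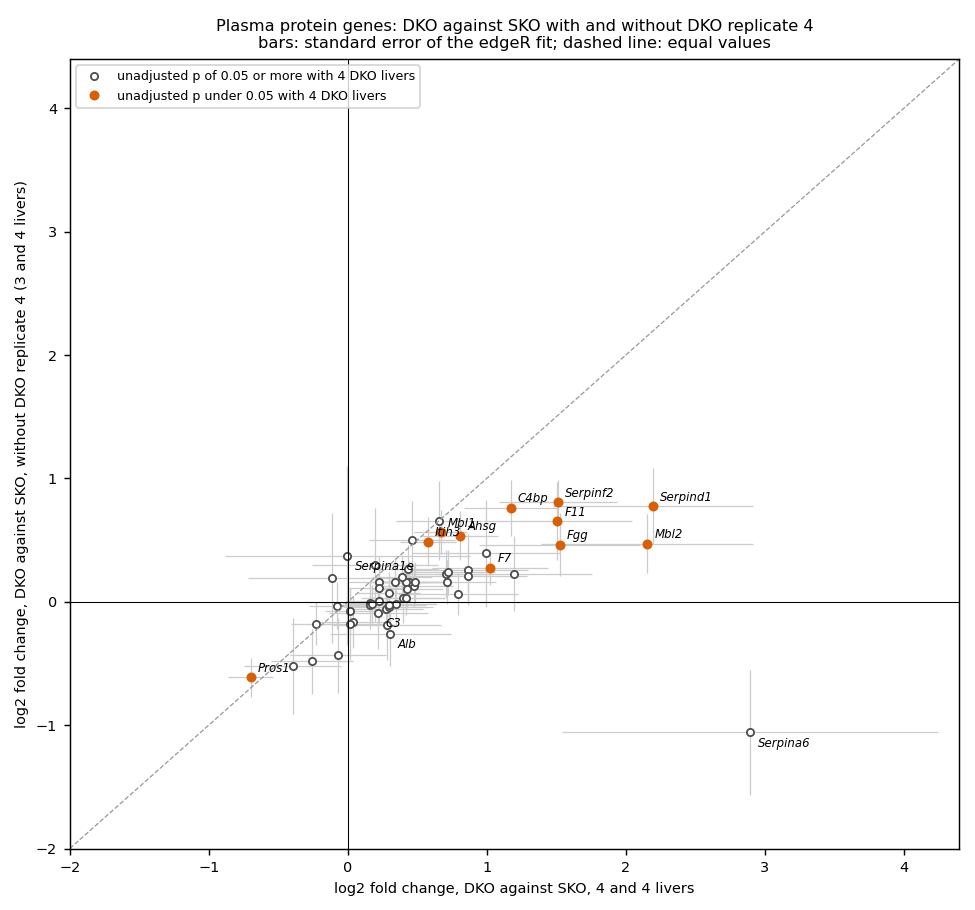
Log2 fold change of each plasma protein gene in DKO against SKO livers, with all 4 DKO livers (x axis) and without DKO replicate 4 (y axis); bars are standard errors and filled symbols had an unadjusted p under 0.05 with all 4. Most points right of 0 lie below the dashed line of equal values, and Serpina6 goes from 2.90 to -1.06.

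DKO replicate 4 lay above the other DKO livers for 45 of the 57 genes, below them for 5, Rbp4, Serpina1e, C6, Pros1 and F12, and within them for 7. Against the WT range it was above for 16 genes, within for 23 and below for 18. Its ratio to the mean of DKO replicates 1 to 3 was 57.1 for Serpina6, 9.42 for Mbl2, 7.39 for Serpind1, 5.12 for Fgg and 4.61 for Fga, and 2.79 for Alb. Among the genes below WT were the terminal complement genes C6, C8a, C8b and C9, with C8g within the WT range. This liver had 99.9 CPM of Cpt2, the lowest of the 12, and 5 counts of Atf3, fewer than any WT liver. It also had the Xist counts, and its macrophage markers summed to 627 CPM, against 174 to 271 in the other DKO livers, 271 to 677 in SKO and 302 to 600 in WT. The part of these in its plasma protein levels was not tested. The positions of this liver were not counted over all genes. Over all genes, 1510 differed between DKO and WT livers with it and 5253 without it (edgeR).

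Other genes of the same systems, from lists drawn up by function, are given as counts, to be read beside the 15.4% lower and 16.7% higher and the median of 0.03 over all genes in SKO against WT. Of 26 other complement genes tested, 10 were lower and 0 higher, with a median log2 fold change of -0.34. C1s1, a protease of the C1 complex, and Cpn2, a subunit of carboxypeptidase N, fell by 1.72 and 1.37, and the factor H-related Cfhr4 and Cfhr2 by 2.16 and 1.27, whereas C1qa, C1qb and C1qc, which macrophages make, had values of -0.04, -0.16 and -0.00 and did not pass the test. Of 23 other genes of coagulation and fibrinolysis, 10 were lower and 2 higher, with a median of -0.29. The lower ones were led by Proz, protein Z, with -3.04 (SE 0.26, edgeR adjusted p = 1.1e-05), and Klkb1, plasma prekallikrein, with -2.34 (SE 0.23, adjusted p = 2.46e-05). They included Ggcx, the enzyme that carboxylates vitamin K-dependent factors, with -1.09 (SE 0.11, edgeR adjusted p = 3.82e-05), and Cpb2, with -1.45. The higher ones included Plaur, the urokinase receptor, with 1.58 (SE 0.41, edgeR adjusted p = 0.0118).

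Of 18 other carriers and inhibitors tested, 15 were lower and 1, Ecm1, higher, with a median of -1.12. Serpina3n, Mug1 and Pon1, the plasma paraoxonase, were among them, with -2.04, -2.15 and -1.46. Of 24 genes listed as positive acute phase, most of which rise in inflammation, 9 were lower and 3 higher, where 15.4% of all genes were lower and 16.7% higher. Saa4 fell by 4.71 and Hp, haptoglobin, by 1.06, whereas Orm2 rose by 2.96 and Cd14 by 2.19. In DKO livers without replicate 4 the counts of lower and higher genes were 16 and 0 of 26 for complement, 11 and 2 of 23 for coagulation, 16 and 0 of 18 for carriers and 10 and 4 of 24 for the acute phase, beside 17.5% lower and 18.4% higher of all genes. With all 4 DKO livers they were 2 and 0, 0 and 1, 4 and 0, and 4 and 4, beside 4.39% lower and 6.06% higher of all genes. In DKO against SKO, 0 genes of these 4 lists passed the threshold, with all DKO livers and without replicate 4 (edgeR).

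Of 22 hepatocyte transcription factors, 3 were higher in SKO livers, Atf3, Atf4 and Atf5, with 4.28, 0.70 and 0.83, and 5 lower, with -0.86 for Nr5a2, -1.16 for Hlf, -0.65 for Tef, -0.73 for Foxa2 and -1.55 for Onecut1, where 16.7% of all genes were higher and 15.4% lower. Hnf4a had a log2 fold change of -0.07 and Cebpa of -0.68, neither past the threshold in edgeR. Of 16 hepatocyte markers outside the plasma proteins, 9 were lower and 0 higher, with a median of -0.58. Single markers ranged widely, with -3.39 for Hal and -1.38 for Ass1, and -0.03 for Cps1, which did not pass. In DKO livers without replicate 4, 12 of the 16 were lower than in WT and 1 higher, with a median of -0.68, beside 17.5% lower and 18.4% higher of all genes. With all 4 DKO livers 0 were lower and 0 higher, with a median of -0.53, beside 4.39% lower and 6.06% higher of all genes.

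Markers of other liver cells were counted in SKO livers, where 16.7% of all genes were higher and 15.4% lower, with 1 of 12 macrophage genes higher (Cd68, by 2.28), 1 of 9 stellate cell genes higher (Dcn), 2 of 4 cholangiocyte genes lower (Sox9 and Spp1), and 0 past the threshold in edgeR of 8 endothelial, 2 lymphocyte and 1 neutrophil genes tested. In DKO livers without replicate 4, 10 of 12 macrophage genes were lower than in WT and 1 higher, with a median of -0.99, beside the median of -0.92 of the 57 plasma protein genes there and 17.5% lower among all genes. With all 4 DKO livers 1 was lower and 0 higher, with a median of -0.37, beside 4.39% lower among all genes. The part of the makeup of the livers in the plasma protein levels was not tested.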

How the data were processed

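RNA-seq had been run on 12 livers of mice fasted for 24 h, 4 per genotype. The deposited table holds whole-number read counts per gene, which the authors made with HISAT2 alignment per the submitters' processing notes, and beside them FPKM values (scaled by transcript length and library size), which the authors computed and which were used here only for levels between genes. The notes name GRCm38 and mm10, but 0 of the 57 genes start where GENCODE M21 of GRCm38 puts them. The table starts Alb at 90608756, whereas the window before its start in GRCm38.p6 ends at 90460869. The coordinates of the table are thus not those of GRCm38, and their build is not given in the sources used here. The counting program and its strand setting are not given in the sources used here. Tables with the authors' own fold changes and p-values were not used.

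Counts were scaled by TMM and tested with edgeR 4.0.16 (limma 3.58.1, R 4.3.3), after filterByExpr, as a quasi-likelihood fit of the 8 livers of each comparison, with Benjamini-Hochberg adjustment over all genes tested and a threshold of 0.05. Levels are CPM scaled over all 12 livers. DESeq2 1.42.0, other scalings, no filter, 1 fit over all livers, a replicate block, Xist as a covariate and each liver left out were the alternatives, and library totals were added after the data were seen. The fit was tested on simulated data with known changes. Python 3.11.15, pandas 2.3.3, Biopython 1.88 and matplotlib 3.10.9 were used for the rest.

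With 14710304 to 20030055 counts per liver, 3 counts correspond to 0.150 to 0.204 CPM, which covers counting error only. The labels do not say that the livers of a genotype came from separate litters or days, so p-values measure the spread between these livers. The 57 genes and the other lists were chosen with earlier results of these data known. Full statistics were planned for the 10 smallest p-values past the threshold in a comparison, for genes with an unadjusted p under 0.05 in DKO against SKO, and for Alb, Ttr, Trf, C3, C5ar1, F2, Fga, Fgb, Fgg and Plg. Some are left out or given only in part, as in DKO against WT for Masp1, C2, C8a, C3, F2 and C5ar1. Of the other lists up to 5 genes by p were named. The C1q genes, Plaur, Ecm1, the markers and the transcription factors beyond those 5 were named after their values were seen. Results for some genes of the other lists are not reported here.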

Additional observations from a re-analysis of the deposited data

Results flagged for a closer look

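Of 171 groups of 4 livers, 3 for each of the 57 genes, 31 held a liver set apart from the other 3 by Dixon's criterion. Independent groups would give about 8.55 by chance, or 1 in 20. All genes were measured in the same 12 livers, so the groups are not independent and 31 cannot be judged against that number. No such count was made over all genes. In 21 of the 31 groups DKO replicate 4 was the highest DKO liver. These were the carriers Alb with 74165 CPM, Ttr with 3901, Trf with 14272, Gc with 5790 and Serpina6 with 259, and the glycoproteins Apoh with 2025 and Kng1 with 1684. Among inhibitors they were Serpina1b with 5441 CPM, Serpinc1 with 1935, Serpind1 with 476 and Serpinf2 with 822. Complement gave Mbl2 with 496 CPM, Cfi with 540.1 and C4bp with 368. Clotting gave F7 with 148 CPM, F10 with 380.2, Proc with 573, F11 with 66.1, Fga with 2689, Fgb with 2889 and Fgg with 2123.

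The other 10 were spread over 5 livers. SKO replicate 2 was the highest SKO liver for Trf with 4241 CPM, Rbp4 with 5549 and F12 with 950.03. WT replicate 1 was the lowest WT liver for Serpina1b with 3991 CPM, Serpina1d with 2127, F7 with 105 and Plg with 1802, and WT replicate 2 was the highest for C6 with 194. SKO replicate 4 was the lowest SKO liver for Fgg with 157 CPM, and SKO replicate 3 the highest for Itih3 with 644. What sets these livers apart was not tested.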

How the results depend on the processing

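In SKO against WT, the 50 genes called stayed between 43, with 1 fit over all 12 livers, and 51, and over all genes 4576 were changed (3617 to 4711 with a liver left out, 4111 with the replicate block). In DKO against WT, 1510 genes were changed, and 2635 with DESeq2, 691 with the replicate block, 3730 with Xist as a covariate and 244 to 5253 with a liver left out. Of the plasma protein genes 8 were called, and 25 of the 52 with an adjusted p in DESeq2, 3 with the replicate block, 42 with Xist as a covariate and 0 (without WT replicate 2) to 51 (without DKO replicate 4) with a liver left out. In DKO against SKO, 3 genes were changed, and 97 with DESeq2, 35 without a filter, 0 with the replicate block, 75 with Xist as a covariate, 21 without both livers with Xist counts and 0 to 15 with a liver left out. Of the plasma protein genes 0 were called, 2 of 53 with DESeq2, 3 with Xist as a covariate (C4bp and F11 higher, Pros1 lower) and 0 with each liver left out. The cause was not tested.

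In at least 1 other fit the sign turned for 1 of the 57 genes in SKO against WT, for 2 in DKO against WT and for 20 in DKO against SKO. Of the genes followed through each setting it turned for C5ar1 in DKO against WT without WT replicate 3 (-0.15) or DKO replicate 3 (-0.05), for Alb in DKO against SKO without DKO replicate 4 (-0.26) or without both livers with Xist counts (-0.049), and for C3 without DKO replicate 4 (-0.090). With a liver left out, C5ar1 ranged from -0.15 to 0.39, Alb from -0.26 to 0.51 and C3 from -0.090 to 0.42. With library totals the split of all genes in SKO against WT went from 2378 higher and 2198 lower to 3759 and 1562. Livers of the same replicate number did not deviate together, with correlations of their deviations from -0.435 to 0.157, so the numbers do not pair them and the replicate block is given only here.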
